A study of Mus musculus with 20 samples.

Results

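Receptors for the constant part of IgG and the ITAM signalling proteins that act behind them were followed in epididymal white adipose tissue (eWAT) of mice. The set was chosen by gene name, not by a measured value, but with earlier results of these data known. It listed 10 genes in roles. The activating Fc gamma receptors were Fcgr1, Fcgr3 and Fcgr4, and the inhibitory one was Fcgr2b. The shared ITAM chain was Fcer1g, the kinases were Syk and Btk, the adaptors were Lat2 and Pik3ap1, and the phospholipase was Plcg2. Of the 10, 9 were among the 14776 genes of the deposited table, and Btk was not analysed here. All 9 passed the filter on low values in each comparison.

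The eWAT came from male C57BL/6J mice that were put on their diets at 6 weeks of age for 20 weeks. The NC group (n = 6) received normal chow. The HFD group (n = 7) received a high-fat diet, with fat supplying 60% of the energy, and saline into the stomach in the last 6 weeks. The SZ-A group (n = 7) received the same diet and, in the last 6 weeks, 400 mg per kg of Ramulus Mori (Sangzhi) alkaloids, an extract of mulberry twig given into the stomach. Whether NC mice were also dosed with saline is not clear from the sources used here, so a part of the dosing in HFD against NC cannot be told apart from the diet. No group carried a transgene or deletion, no chow-fed group received SZ-A, and the labels give no batch or sequencing date. Values are FPKM, reads scaled to gene length and library size, so levels of different genes can be set side by side.

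Fc gamma receptors sit mainly on macrophages, neutrophils, mast cells and B cells. Activating receptors bind IgG complexes and pass the signal through an ITAM, a short motif with a pair of tyrosines, on the Fcer1g chain. Src family kinases phosphorylate the ITAM, and Syk docks on it and is activated. Adaptors then gather phospholipase C gamma and other enzymes that drive calcium release, phagocytosis and cytokine production. Lat2 (also known as NTAL) is one of the adaptors of this pathway. Pik3ap1 (BCAP) links receptors to PI3-kinase. Fcgr2b carries an ITIM instead and recruits the lipid phosphatase encoded by Inpp5d, which restrains the same pathway, and it is the main Fc gamma receptor of B cells. In obese adipose tissue macrophages gather around dying adipocytes and are the main local source of these receptors.

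The receptor genes lie close together, except for Fcgr1. In GENCODE M21 on GRCm38, Fcgr2b (chr1:170958617-170976547, minus strand), Fcgr4 (chr1:171018920-171029761, plus strand), Fcgr3 (chr1:171051174-171064935, minus strand) and Fcer1g (chr1:171229572-171234365, minus strand) fall within 276 kb. Fcgr1 is on chromosome 3 (chr3:96282909-96293969, minus strand). Syk is on chromosome 13, Lat2 on chromosome 5, Pik3ap1 on chromosome 19 and Plcg2 on chromosome 8. The inhibitory gene is thus a neighbour of genes that moved differently from it. Windows around start sites are printed for Fcgr1, Fcgr3, Fcgr4, Pik3ap1 and Fcgr2b. Those of the neighbour Fcer1g, of Syk and of Plcg2 were searched but are not printed. The windows are from RefSeq (GRCm38.p6), 250 bases before to 50 bases after a start site, and 8 of the 9 genes had one. Capitals mark GAGGAA on either strand (TTCCTC where it lies on the other one). GAGGAA is the core of purine-rich sites bound by PU.1, the myeloid transcription factor encoded by Spi1. The windows are chr3:96293920-96294219 (minus strand), chr1:171059354-171059653 (minus strand), chr1:171018676-171018975 (plus strand), chr19:41385053-41385352 (minus strand) and chr1:170976022-170976321 (minus strand).
Fcgr1: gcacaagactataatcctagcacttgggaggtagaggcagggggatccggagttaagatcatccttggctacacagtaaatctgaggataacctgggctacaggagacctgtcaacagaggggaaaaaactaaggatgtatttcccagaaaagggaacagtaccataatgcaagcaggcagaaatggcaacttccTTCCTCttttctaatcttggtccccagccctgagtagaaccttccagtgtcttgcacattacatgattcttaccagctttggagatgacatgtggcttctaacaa
Fcgr3: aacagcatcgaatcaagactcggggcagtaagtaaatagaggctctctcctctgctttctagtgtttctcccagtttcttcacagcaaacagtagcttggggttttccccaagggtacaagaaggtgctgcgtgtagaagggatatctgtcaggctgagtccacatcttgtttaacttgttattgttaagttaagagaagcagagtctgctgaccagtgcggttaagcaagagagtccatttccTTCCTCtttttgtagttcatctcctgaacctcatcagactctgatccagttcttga
Fcgr4: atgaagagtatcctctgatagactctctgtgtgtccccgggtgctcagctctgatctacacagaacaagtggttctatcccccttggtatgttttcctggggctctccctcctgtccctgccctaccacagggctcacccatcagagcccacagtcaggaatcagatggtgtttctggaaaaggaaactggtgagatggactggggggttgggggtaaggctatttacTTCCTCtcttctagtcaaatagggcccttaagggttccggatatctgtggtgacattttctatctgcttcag
Pik3ap1: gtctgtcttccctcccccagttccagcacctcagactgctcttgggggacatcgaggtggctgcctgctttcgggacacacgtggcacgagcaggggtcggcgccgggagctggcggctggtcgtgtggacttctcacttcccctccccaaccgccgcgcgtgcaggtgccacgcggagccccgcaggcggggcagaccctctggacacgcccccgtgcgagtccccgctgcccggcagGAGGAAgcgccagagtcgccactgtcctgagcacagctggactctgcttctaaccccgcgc
Fcgr2b: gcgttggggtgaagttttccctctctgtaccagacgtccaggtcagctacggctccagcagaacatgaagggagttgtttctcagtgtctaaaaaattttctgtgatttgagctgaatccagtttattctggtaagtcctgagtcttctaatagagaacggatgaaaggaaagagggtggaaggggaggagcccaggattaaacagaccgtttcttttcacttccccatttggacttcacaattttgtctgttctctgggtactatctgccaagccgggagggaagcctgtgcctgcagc
The marked letters begin at position -55 in Fcgr1, -6 in Fcgr3, -22 in Fcgr4 and -11 in Pik3ap1, counted from the start site. One of the 2 Syk windows held them too, while those of Fcgr2b, Fcer1g and Plcg2 did not. In all, 6 of the 10 windows of these genes held the letters, against 26.9% of the 13752 windows of genes in the expression table and 28.3% of all 32851 windows. Both Fcgr3 windows, which overlap, are among the 6. Fcer1g and Plcg2, whose windows lacked the letters, also rose with HFD, as given below. A match is a description of the letters only, and its part in the results was not tested.

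Some libraries stood apart from the rest and are named before the results. In NC replicate 6 the adipocyte hormone gene Adipoq was at 26.6 FPKM, against at least 859 in the other NC mice, and the endothelial gene Pecam1 was at 0.981 FPKM, against at least 18.2. The epididymis and epithelial markers, of which 4 of 18 were in the table, summed to 17.6 to 866 FPKM in NC mice, 5.23 to 15.1 in HFD mice and 4.72 to 322 in SZ-A mice. They exceeded 200 FPKM in 5 mice, NC replicates 1, 2 and 6 and SZ-A replicates 2 and 7. NC replicates 4 and 5 had 160 and 175 FPKM, and the NC and HFD ranges did not overlap. Leaving out the mice over 200 FPKM thus keeps some NC mice above every HFD mouse, and the part of these markers in the results was not tested. In SZ-A replicate 5, 11.6% of the reads fell on mitochondrial genes, against 1.67% to 5.11% in the other SZ-A mice. The share also differed between NC mice (3.30% to 8.34%, replicate 1 being highest) and HFD mice (1.67% to 2.92%), which did not overlap, and its part in the results was not tested. Between 13567667 and 19388628 reads per mouse were recovered on the genes of the table. Macrophage markers, 20 of 20 in the table, summed to 292 to 1067 FPKM in NC mice, 4998 to 12968 in HFD mice and 1983 to 6530 in SZ-A mice. In bulk tissue, fewer cells of a type and less RNA per cell cannot be told apart.

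In mice on chow Fcgr1 and Fcgr4 were low, and Fcgr2b was a large part of the receptor RNAs. NC means of Fcgr3, Fcer1g and Fcgr2b lay above those of 81.0%, 80.7% and 67.2% of the genes in the table. For Fcgr1 and Fcgr4 the shares were 16.7% and 19.5%. Fcgr3 had 17.6 ± 10.1 FPKM (SD, n = 6) and the ITAM chain Fcer1g 17.3 ± 8.65 FPKM, and their ranges overlapped almost fully. Fcgr2b followed with 9.32 ± 2.88 FPKM. Syk had 4.74 ± 4.07, Plcg2 3.70 ± 2.17 and Pik3ap1 2.36 ± 1.36 FPKM, and these 3 overlapped as well. Fcgr4 (1.24 ± 0.501), Fcgr1 (1.03 ± 0.374) and Lat2 (0.564 ± 0.375 FPKM) were lowest. At this level few reads stand behind a value, and the lowest NC libraries held 13 reads for Fcgr1, 9 for Fcgr4 and 8 for Lat2. The NC mean of Lat2 lay above that of 9.79% of the genes in the table, and its HFD mean above 89.8%.

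The order of levels differed in HFD mice. Fcer1g came first with 268 ± 116 FPKM (SD, n = 7), a level above 99.1% of genes, then Fcgr3 with 184 ± 57.5 FPKM. The ranges of these 2 genes, 140 to 479 and 123 to 287 FPKM, overlapped. Pik3ap1 (53.4 ± 12.4), Syk (36.9 ± 6.00) and Lat2 (34.1 ± 10.5 FPKM) formed the next group, with overlapping ranges. Fcgr4 (23.1 ± 5.81), Fcgr1 (15.2 ± 2.17), Fcgr2b (12.2 ± 3.62) and Plcg2 (10.9 ± 2.58 FPKM) came last, and neighbours in that order overlapped. Fcgr2b went from the third of the 9 genes in NC to the eighth in HFD mice.

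**Figure D1:**
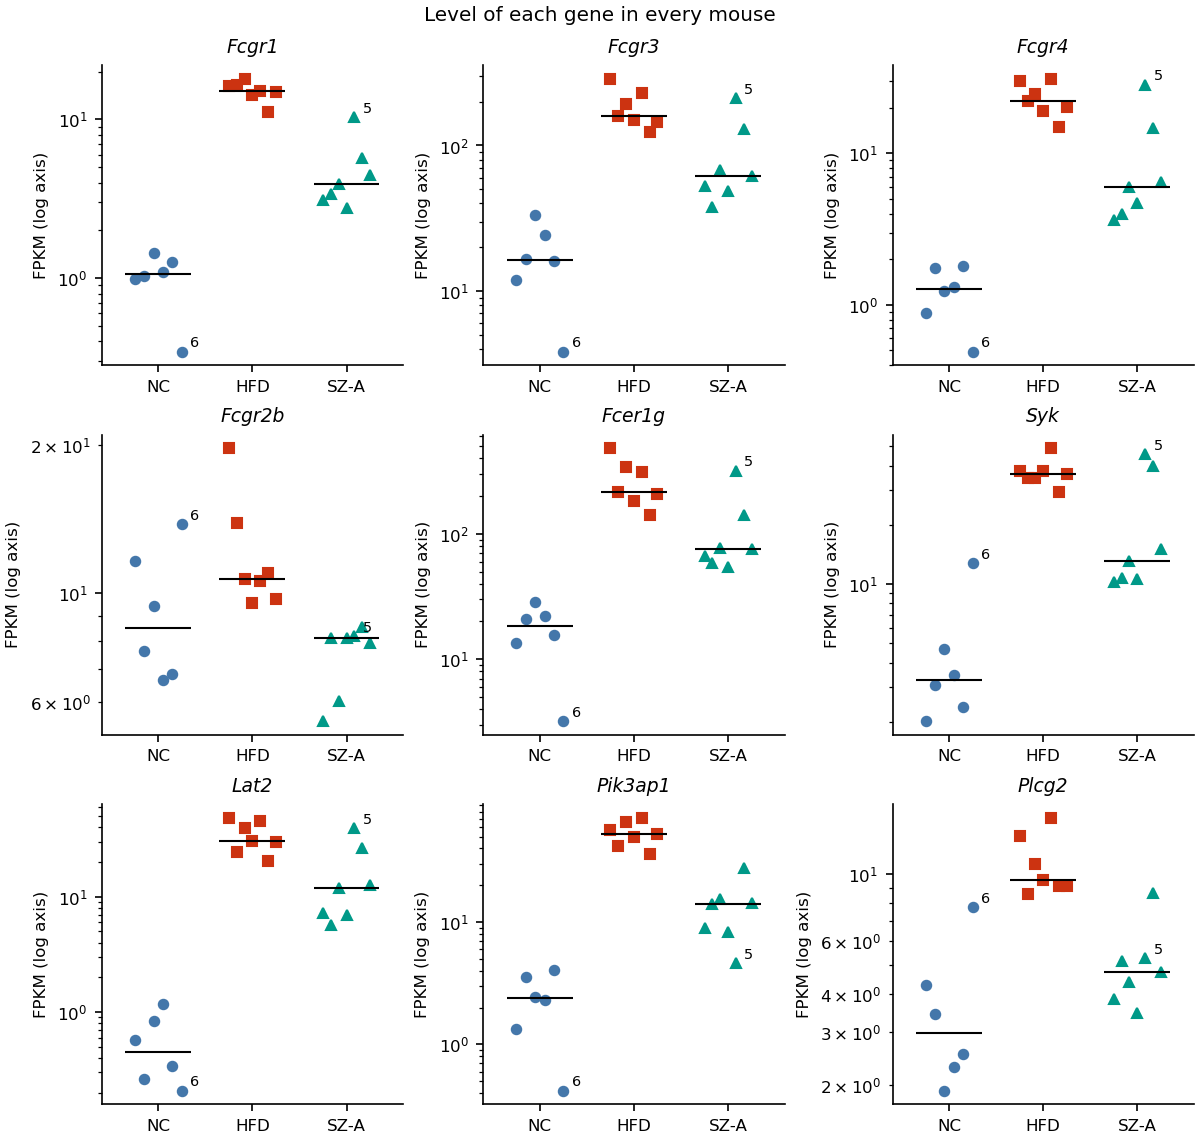
Level of each of the 9 genes in every mouse, in FPKM on a log axis, for NC (circles), HFD (squares) and SZ-A (triangles); black lines are group medians, and the numbers mark NC replicate 6 and SZ-A replicate 5. All genes but Fcgr2b are higher in every HFD mouse than in any NC mouse, and SZ-A replicate 5 is high for Fcer1g (319 FPKM) and low for Pik3ap1 (4.64 FPKM).

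The first comparison, HFD against NC, asks how these RNAs differ between mice on the high-fat diet and mice on chow. Of the 9 genes, 8 rose at an adjusted p under 0.05 (limma on log2(FPKM + 1), adjusted over all genes tested), and 0 fell. Of all 14706 genes tested, 21.0% rose and 20.1% fell by that rule. With the further requirement of a log2 fold change above 1.5, 7 of the 9 rose, against 5.43% of all genes. The 7 were Fcgr1, Fcgr3, Fcgr4, Fcer1g, Syk, Lat2 and Pik3ap1. The median log2 fold change of the 9 was 3.42, beside -0.04 for all genes tested. In 8 of the 9 genes every HFD mouse lay above every NC mouse, which was so for 12.7% of all genes.

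The activating receptors rose together. Fcgr1 encodes the high-affinity receptor for monomeric IgG. It ran from 0.345 to 1.44 FPKM in NC mice (median 1.07) and from 11.1 to 18.0 in HFD mice (median 15.1). Every HFD mouse was above every NC mouse, and the lowest NC value was that of replicate 6. It rose by 3.01 ± 0.15 (SE) in log2, with an adjusted p of 1.5e-08. Fcgr3 encodes a low-affinity receptor that needs the Fcer1g chain. It ran from 3.83 to 33.1 FPKM in NC mice (median 16.3) and from 123 to 287 in HFD mice (median 159). The groups did not overlap and HFD replicate 1 was highest. Its log2 fold change was 3.49 ± 0.37 (adjusted p = 8.3e-06). Fcgr4, a receptor for IgG2 subclasses, ran from 0.492 to 1.80 FPKM in NC mice (median 1.27) and from 14.9 to 31.0 in HFD mice (median 22.1). Here too the groups were apart, and the log2 fold change was 3.42 ± 0.19 (adjusted p = 3.4e-08).

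The inhibitory receptor did not follow them. Fcgr2b ran from 6.66 to 13.8 FPKM in NC mice (median 8.50) and from 9.56 to 19.7 in HFD mice (median 10.7). The groups overlapped, since NC replicates 1 and 6 lay among the HFD mice. Its log2 fold change was 0.36 ± 0.20, with a 95% interval of -0.06 to 0.78 and an adjusted p of 0.16. Without NC replicate 6 it was 0.47 (adjusted p = 0.050). Without the 3 NC mice that had over 200 FPKM of epididymis and epithelial markers it was 0.59 (adjusted p = 0.037). With array quality weights, which give less weight to libraries that vary more, it was 0.44 (adjusted p = 0.027). Whether Fcgr2b passed the test thus depended on the mice and the weights used. By each of these values it stayed under the change of each activating receptor. Fcgr2b and Fcgr3 have similar sequences. Of the stretches of 50 bases, 9.58% in Fcgr3 transcripts also occur in Fcgr2b, and 2.92% in Fcgr2b transcripts occur in Fcgr3. The reads were 150 bp pairs, so a shared stretch of 50 bases does not by itself make a read fit both genes. Whether any reads could be assigned to either gene is not shown by these shares. Fcgr3 had more reads in HFD mice (7671 against 1759 in HFD replicate 1), so such reads, if any, could be a larger part of the Fcgr2b value. Their number was not tested.

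The ITAM chain and the kinase rose like the activating receptors. Fcer1g ran from 3.22 to 28.4 FPKM in NC mice (median 18.4) and from 140 to 479 in HFD mice (median 217). No HFD mouse came near the NC range, and NC replicate 6 was lowest. It rose by a log2 fold change of 3.98 ± 0.41 (adjusted p = 6.1e-06). Fcer1g also serves the IgE receptor of mast cells. Mast cell markers, 6 of 9 in the table, summed to 4.72 to 27.9 FPKM in NC and 51.2 to 710 in HFD mice, and Fcer1a, Ms4a2 and Tpsab1 were not analysed here. Their part in the Fcer1g result was not tested. Syk ran from 2.02 to 12.8 FPKM in NC mice (median 3.25) and from 29.3 to 48.9 in HFD mice (median 36.2). Its highest NC value was that of replicate 6, the next being 4.70. Syk rose by a log2 fold change of 2.92 ± 0.29 (adjusted p = 4.0e-06), and it was 3.22 without that mouse.

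The adaptors gave the largest fold changes of the set. Lat2 ran from 0.209 to 1.17 FPKM in NC mice (median 0.454) and from 20.5 to 48.3 in HFD mice (median 30.7). The log2 fold change was 4.46 ± 0.21 (adjusted p = 1.3e-08). Exons of Lat2 share 952 bases, 36.3% of their length, with Rfc2 on the other strand, and the strand setting of the counting is not given in the sources used here. Rfc2, a subunit of the clamp loader of DNA replication, had 3.94 ± 1.29 FPKM in NC and 5.11 ± 1.06 in HFD mice (log2 fold change 0.33 ± 0.16, adjusted p = 0.13). Reads in the shared bases cannot be told apart between the 2 genes without strand. Pik3ap1 ran from 0.420 to 4.06 FPKM in NC mice (median 2.38) and from 36.2 to 71.1 in HFD mice (median 52.7). Its groups were far apart as well. Its log2 fold change was 4.10 ± 0.27 (adjusted p = 1.3e-07).

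Plcg2, the phospholipase that cuts PIP2 behind Syk and Btk, rose least among the 8. It ran from 1.91 to 7.78 FPKM in NC mice (median 2.98) and from 8.63 to 15.4 in HFD mice (median 9.60). The groups were separated only narrowly, because NC replicate 6 had 7.78 FPKM and the next NC mouse 4.28. The log2 fold change was 1.42 ± 0.24 (adjusted p = 3.6e-04), below the limit of 1.5. Without NC replicate 6 it was 1.62 (adjusted p = 9.9e-06), so that 8 genes passed both criteria.

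**Figure D2:**
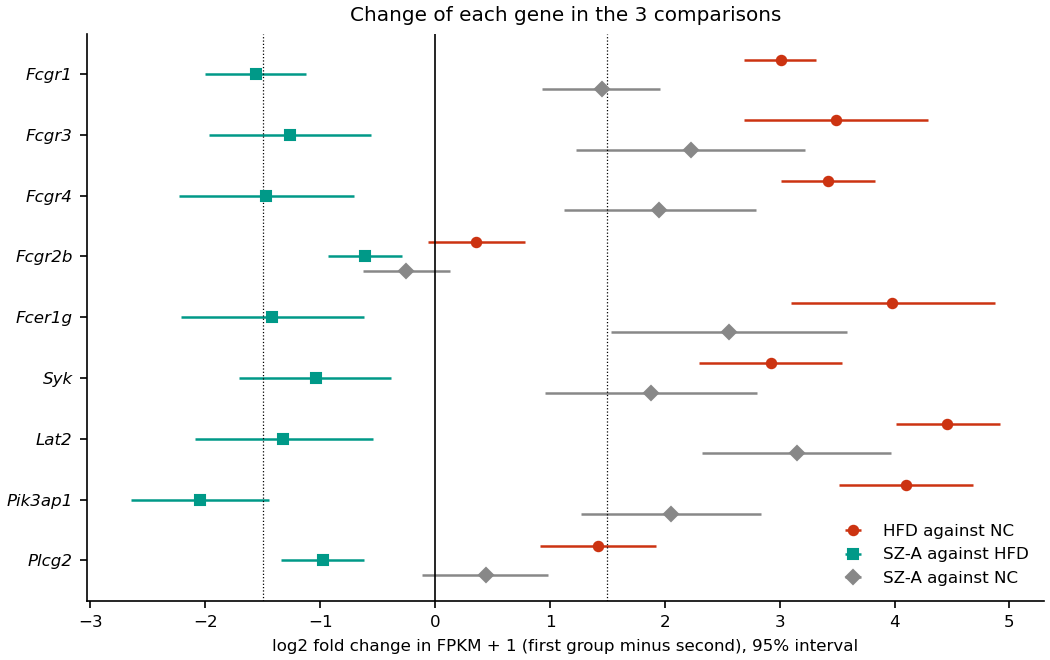
Log2 fold change of each gene, in log2(FPKM + 1), with its 95% interval from limma, for HFD against NC (circles), SZ-A against HFD (squares) and SZ-A against NC (diamonds); dotted lines mark 1.5 in each direction. Fcgr2b and Plcg2 have the smallest HFD changes (0.36 and 1.42), and Pik3ap1 has the largest SZ-A change (-2.05).

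The second comparison, SZ-A against HFD, asks what the extract changed in mice kept on the diet. All 9 genes were lower in SZ-A mice at an adjusted p under 0.05, and by that rule 13.3% of the 14695 genes tested were lower. The median log2 fold change of the 9 was -1.32, beside 0.03 for all genes. Only 2 of the 9, Fcgr1 and Pik3ap1, also passed the limit of 1.5, as did 0.558% of all genes in that direction. With the limit set at a fold change of 1.5, not in log2, all 9 passed. In 3 genes, Fcgr1, Fcgr2b and Pik3ap1, every SZ-A mouse lay below every HFD mouse, which was so for 4.01% of all genes. The count of 2 depended on single mice. It was 6 without SZ-A replicate 5, 4 without SZ-A replicate 6 and 4 without HFD replicate 6, and 1 without SZ-A replicate 1 or replicate 4. In those last cases Pik3ap1 was the gene that still passed.

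Pik3ap1 fell most. Its SZ-A values ran from 4.64 to 27.8 FPKM (median 14.0), all below the lowest HFD value of 36.2. The log2 fold change was -2.05 ± 0.28 (adjusted p = 4.6e-04), and without SZ-A replicate 5, the lowest mouse, it was -1.85 (adjusted p = 3.3e-04). Fcgr1 ran from 2.77 to 10.3 FPKM in SZ-A mice (median 3.91). Its highest SZ-A mouse, replicate 5, was just under the lowest HFD mouse at 11.1. Fcgr1 had a log2 fold change of -1.56 ± 0.21 (adjusted p = 3.7e-04).

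The other activating receptors, the ITAM chain, Syk and Lat2 fell with a wide spread. Fcgr3 ran from 38.0 to 212 FPKM in SZ-A mice (median 61.7) and had a log2 fold change of -1.26 ± 0.33 (adjusted p = 0.014). Fcgr4 ran from 3.65 to 28.4 FPKM (median 5.97) and changed by -1.47 ± 0.36 (adjusted p = 0.0096). Fcer1g ran from 54.7 to 319 FPKM (median 75.7) and changed by -1.42 ± 0.37 (adjusted p = 0.014). In each of the 3 genes the groups overlapped, since SZ-A replicate 5, and for Fcgr3 and Fcer1g also replicate 6, lay at HFD levels. Syk ran from 10.3 to 45.9 FPKM (median 13.1), with a log2 fold change of -1.04 ± 0.31 (adjusted p = 0.027). Lat2 ran from 5.66 to 39.3 FPKM (median 11.8), with a log2 fold change of -1.32 ± 0.37 (adjusted p = 0.019). In both genes SZ-A replicates 5 and 6 lay among the HFD mice and the other 5 below them. Without the 2 SZ-A mice that had over 200 FPKM of epididymis and epithelial markers, the fall of Syk missed the test (-0.88, adjusted p = 0.074), and each of the other 8 genes kept an adjusted p under 0.05.

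Fcgr2b and Plcg2 had the smallest falls on the log2(FPKM + 1) scale, with tighter SZ-A groups. Fcgr2b ran from 5.49 to 8.54 FPKM in SZ-A mice (median 8.10), and every one of them was below the lowest HFD mouse at 9.56. The log2 fold change was -0.61 ± 0.15 (adjusted p = 0.011). Plcg2 ran from 3.46 to 8.66 FPKM (median 4.75), and only SZ-A replicate 6, at 8.66, reached the HFD range. Its log2 fold change was -0.98 ± 0.17 (adjusted p = 0.0015). B cell markers, 3 of 10 in the table, summed to 0.184 to 9.55 FPKM in NC mice, 5.78 to 20.8 in HFD mice and 3.38 to 12.8 in SZ-A mice, and Ms4a1, which encodes CD20, was not analysed here. Their part in the Fcgr2b result was not tested.

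SZ-A mice were not alike. In 5 of the 7 mice all 9 genes lay below the lowest HFD mouse. In SZ-A replicate 5 Fcgr3, Fcgr4, Fcer1g, Syk and Lat2 were at or above the lowest HFD value, and in replicate 6 Fcgr3, Fcer1g, Syk, Lat2 and Plcg2 were. Replicate 5 was split within the set. Measured against the mean of the other 6 SZ-A mice on the log2(FPKM + 1) scale, it was higher by 2.09 for Fcgr4, 2.08 for Fcer1g, 1.83 for Lat2, 1.77 for Fcgr3, 1.59 for Syk and 1.23 for Fcgr1. It differed by 0.15 for Fcgr2b and 0.10 for Plcg2, and it was lower for Pik3ap1, by -1.38. The macrophage marker mean was higher in that mouse by 1.10. The same library had the high mitochondrial share, and its genes lowest and highest in GC content differed from those of the other SZ-A mice by medians of -0.19 and 0.25. By length, its shortest genes differed by a median of 0.24 and its longest by -0.25. Shifts of similar size were found in other mice, each measured within its own group. SZ-A replicate 2 had 0.18 and -0.32 by GC content, and NC replicate 1 had 0.32 and -0.24 by length. The longest transcript of Pik3ap1, low in this mouse, has 4482 bases and 51.3% GC, and that of Fcer1g, high in it, has 683 bases and 51.8% GC. Length did not order all members, since the longest transcript of Syk, high in this mouse, has 5363 bases. The part of these library properties in the split was not tested.

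The third comparison, SZ-A against NC, asks how far the treated mice stood from chow. At an adjusted p under 0.05, 7 of the 9 genes were higher in SZ-A mice, against 4.15% of the 14718 genes tested. With the limit of 1.5 it was 6 of the 9, against 1.73% of all genes, and the 6 were Fcgr3, Fcgr4, Fcer1g, Syk, Lat2 and Pik3ap1. In 6 genes, these without Syk and with Fcgr1, every SZ-A mouse lay above every NC mouse, which was so for 3.22% of all genes. Lat2 stood highest above chow, with a log2 fold change of 3.15 ± 0.38 (adjusted p = 6.3e-04), and its lowest SZ-A mouse at 5.66 FPKM was above the highest NC mouse at 1.17. Fcer1g was higher by 2.56 ± 0.48 (adjusted p = 0.0074), Fcgr3 by 2.23 ± 0.46 (adjusted p = 0.013) and Pik3ap1 by 2.05 ± 0.37 (adjusted p = 0.0055). Fcgr1 was higher by 1.45 ± 0.24 (adjusted p = 0.0036), just under the limit. Fcgr2b (-0.25, 95% interval -0.63 to 0.13, adjusted p = 0.47) and Plcg2 (0.44, interval -0.11 to 0.98, adjusted p = 0.37) did not pass the test. The count of 6 fell to 2 with the replicate number as a block, and to 1, Lat2, when the 5 mice with over 200 FPKM of epididymis and epithelial markers were left out. This comparison shares its mice with the other 2.

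The balance of activating to inhibitory receptor was then set out within each mouse, as a ratio of FPKM in which library scaling cancels. Any reads that could be assigned to either Fcgr3 or Fcgr2b, as given above, would bear on these ratios and shares by an amount that was not tested. Of the summed FPKM of the 4 receptors, Fcgr2b made up 36.0 ± 21.1% in NC mice (SD, n = 6), 5.30 ± 1.14% in HFD mice and 8.82 ± 4.12% in SZ-A mice. NC replicate 6 held the highest share, 74.7%, and the NC mean without it was 28.2 ± 10.4%. Fcgr3 made up 56.2 ± 19.8%, 78.1 ± 2.17% and 78.5 ± 4.12% in the same order. The sum itself was 29.2 ± 9.12 FPKM in NC mice, 235 ± 66.7 in HFD mice and 109 ± 74.5 in SZ-A mice. The receptor pool of HFD mice was thus larger and consisted mostly of Fcgr3.

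The ratios were tested with an exact two-sided permutation test of the group means in log2, with Benjamini-Hochberg adjustment over 9 tests, 3 ratios in 3 comparisons. The Fcgr1 to Fcgr2b ratio ran from 0.0250 to 0.184 in NC mice (median 0.144), from 0.821 to 1.68 in HFD mice (median 1.42) and from 0.342 to 1.26 in SZ-A mice. The HFD and NC groups were apart, and SZ-A mice lay above NC and overlapped HFD. The HFD ratio was 3.60 ± 0.47 (SE) log2 units above the NC ratio, with an exact permutation p of 0.0012, the smallest that 7 against 6 mice can give, and an adjusted p of 0.0017. With Fcgr3 the difference was 3.21 ± 0.59 and with Fcgr4 3.90 ± 0.47, with the same exact permutation p and adjusted p. Without NC replicate 6 the 3 differences were 3.19, 2.70 and 3.54.

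With SZ-A the ratios came down in part. The Fcgr1 to Fcgr2b ratio was lower than in HFD mice by -1.11 ± 0.27 log2 units (exact permutation p = 0.0029, adjusted p = 0.0037). The Fcgr4 to Fcgr2b ratio ran from 1.36 to 2.91 in HFD mice and from 0.490 to 3.48 in SZ-A mice and differed by -0.95 ± 0.40 (exact permutation p = 0.039, adjusted p = 0.044). That call was lost when any of 10 of the 14 mice was left out, with adjusted p-values of up to 0.088. The Fcgr3 to Fcgr2b ratio had a median of 14.9 in HFD and 9.63 in SZ-A mice and did not pass the test (-0.60 ± 0.34, exact permutation p = 0.10, adjusted p = 0.10). Without SZ-A replicate 5, whose Fcgr3 ratio of 25.9 was above every HFD mouse, it did (-0.83, adjusted p = 0.012 by the exact permutation test). Against NC, SZ-A mice had higher ratios by 2.49, 2.61 and 2.96 for Fcgr1, Fcgr3 and Fcgr4, each with an exact permutation p of 0.0012 and an adjusted p of 0.0017.

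**Figure D3:**
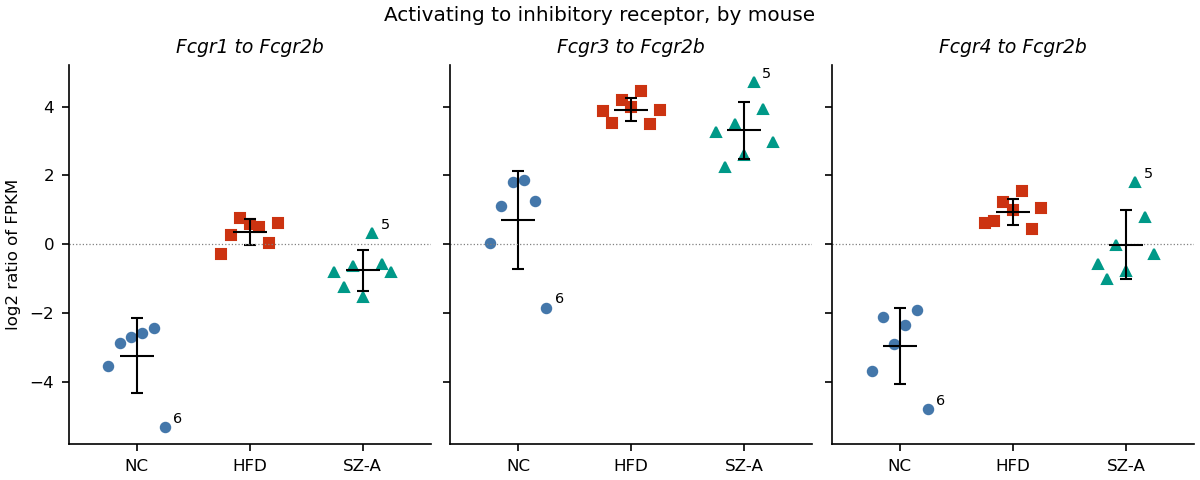
Log2 ratio of FPKM of Fcgr1, Fcgr3 or Fcgr4 to Fcgr2b in every mouse, for NC (circles), HFD (squares) and SZ-A (triangles), with mean and SD in black; 0 means equal FPKM, and the numbers mark NC replicate 6 and SZ-A replicate 5. All HFD mice are above all NC mice in each ratio, and SZ-A replicate 5 has the highest Fcgr3 and Fcgr4 ratios of all mice.

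To read the genes beside macrophage content, each was also set against the mean log2(FPKM + 1) of the 20 macrophage markers in the same mouse. Of those markers 19 rose with HFD and 17 fell with SZ-A at an adjusted p under 0.05, with medians of 3.26 and -1.35. On this scale nearly all genes of the tissue move against the markers. By this measure 98.2% of all genes tested were lower with HFD than with chow and 94.0% were higher with SZ-A than in the HFD group, so what stands out is a gene that kept pace with the markers or passed them. In HFD against NC, 3 of the 9 passed them, against 0.456% of all genes, and 2 lagged. The 3 were Lat2 (1.24 ± 0.28, adjusted p = 3.2e-04), Pik3ap1 (0.88 ± 0.26, adjusted p = 0.0036) and Fcer1g (0.75 ± 0.27, adjusted p = 0.013). The 2 that lagged were Fcgr2b (-2.87 ± 0.38, adjusted p = 4.9e-07) and Plcg2 (-1.81 ± 0.44, adjusted p = 5.6e-04). Fcgr1 (-0.22), Fcgr3 (0.26), Fcgr4 (0.19) and Syk (-0.30) gave differences that did not pass the test, with adjusted p-values from 0.30 to 0.51. Syk had 0.25 without NC replicate 6. With a pseudocount of 0.1 Fcgr4 passed the test as well (0.72, adjusted p = 0.025 by limma).

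In SZ-A against HFD, 7 of the 9 genes gave no difference in distance from the macrophage markers that passed the test. The smallest difference was that of Fcgr3, 0.01 ± 0.19, and the largest among the 7 was that of Plcg2, 0.30 ± 0.21 (adjusted p = 0.19). Pik3ap1 fell further than the markers, by -0.77 ± 0.34 (adjusted p = 0.039), as did 0.157% of all genes. In SZ-A mice its level minus the marker mean ran from -4.21 to -1.40 and in HFD mice from -1.74 to -1.04, and replicate 5 was the mouse at -4.21. Without that mouse the difference was -0.42 (adjusted p = 0.037), and with any of 5 other mice left out the adjusted p was between 0.056 and 0.067. Fcgr2b fell less than the markers and stood 0.67 ± 0.24 higher against them (adjusted p = 0.014). These readings hold for the marker mean and a pseudocount of 1. With a pseudocount of 0.1, 3 genes passed the test, 1 higher and 2 lower. With Adgre1, the gene for F4/80, alone as the reference, 8 of the 9 genes lagged in HFD mice and 0 passed it, and in SZ-A against HFD 4 genes were higher and 0 lower, with Pik3ap1 at -0.19 (adjusted p = 0.53).

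**Figure D4:**
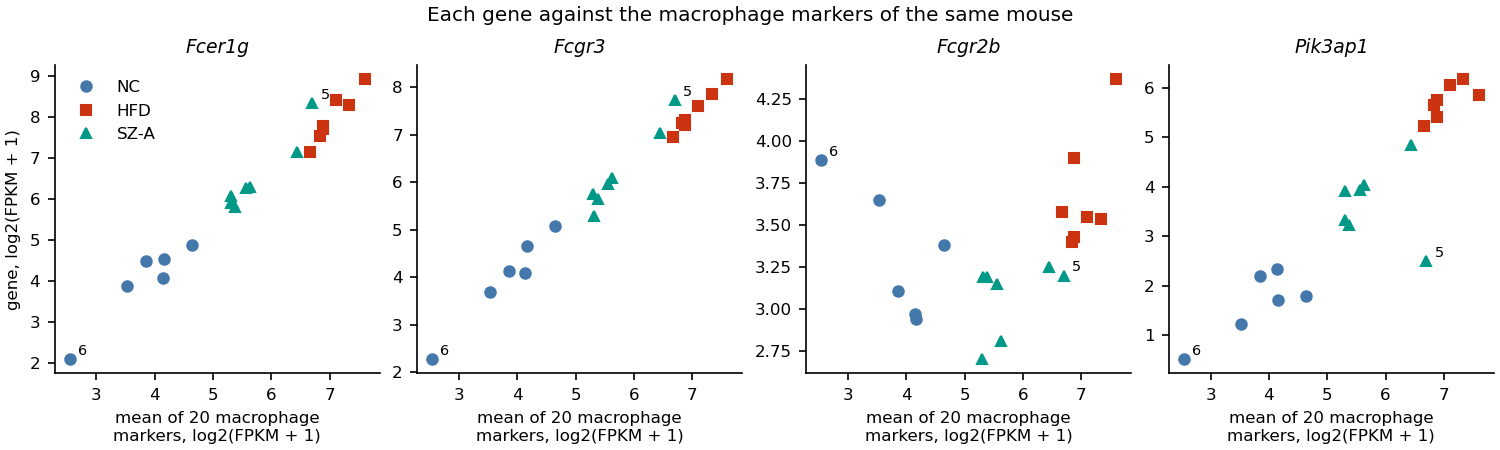
Level of Fcer1g, Fcgr3, Fcgr2b and Pik3ap1 against the mean of the 20 macrophage markers in the same mouse, both in log2(FPKM + 1), for NC (circles), HFD (squares) and SZ-A (triangles); the numbers mark NC replicate 6 and SZ-A replicate 5. Fcer1g and Fcgr3 lie along a line with the markers, Fcgr2b does not, and Pik3ap1 in SZ-A replicate 5 has a difference of -4.21 from the marker mean.

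Genes of other cell types give values to read beside these results. Fibroblast and progenitor markers, 10 of 10 in the table, summed to 78.0 to 885 FPKM in NC mice, 1213 to 1813 in HFD mice and 494 to 820 in SZ-A mice. NC replicate 6 had the 78.0 FPKM. With HFD 7 of the 10 rose and 1 fell, beside 21.0% and 20.1% of all genes. With SZ-A 8 fell, beside 13.3% of all genes. T and NK cell markers, 11 of 14 in the table, summed to 5.94 to 129 FPKM in NC mice. The sums were 39.7 to 72.1 FPKM in HFD mice and 16.6 to 56.1 in SZ-A mice. Group medians, in the same order, were 8.97, 46.6 and 25.8 FPKM. Gene by gene the shifts were smaller. Of the 11, 3 rose and 0 fell with HFD (median log2 fold change 0.35), and 3 fell with SZ-A (median -0.16). The T cell gene Cd3e passed the test in neither comparison. Its log2 fold changes by limma were 0.09 with HFD (adjusted p = 0.56) and -0.14 with SZ-A (adjusted p = 0.23). Neutrophil markers, 3 of 11 in the table, summed to 0.617 to 14.1, 7.32 to 18.7 and 6.53 to 24.0 FPKM, with S100a8 at 7.32 ± 3.93 in HFD and 7.08 ± 3.95 in SZ-A mice. Dendritic cell markers, 7 of 10 in the table, summed to 6.24 to 21.0, 10.1 to 12.9 and 8.14 to 23.2 FPKM. Mast cell markers summed to 13.8 to 67.7 FPKM in SZ-A mice, and the mast cell protease Cpa3 had 39.0 ± 34.2 FPKM in HFD and 3.76 ± 2.32 in SZ-A mice. Adipocyte markers, 12 of 12 in the table, summed to 588 to 24487 FPKM in NC mice, 1507 to 6739 in HFD mice and 4794 to 15898 in SZ-A mice. The 588 FPKM was that of NC replicate 6. Every other NC mouse had at least 10146 FPKM, above all HFD mice. The part of these cell types in the results for the 9 genes was not tested.

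Across the 20 mice, the genes whose profile was closest to each of the 9 were found by the mean absolute difference in log2(FPKM + 1), each gene centred on its own mean. Closest to Fcgr1 were Ms4a7 (0.17), Tlr1 (0.18) and Tbxas1 (0.20). For Fcgr3 they were Gpr137b (0.17), the complement gene C1qb (0.17) and Selplg (0.18), and for Fcgr4 Ncf4 (0.19), Lpxn (0.20) and Cd200r4 (0.20). Fcer1g was closest to Laptm5 (0.19), Cd300ld (0.21) and Sirpa (0.22), and Lat2 to Cd300c2 (0.16), Arhgap25 (0.16) and Spi1 (0.21). Syk was closest to B4galt5 (0.20), Fam83f (0.20) and Mfsd12 (0.22). Plcg2 was closest to Arpc2 (0.17), Diaph1 (0.18) and Psd4 (0.18). Fcgr2b was closest to Pias1 (0.18), Foxo3 (0.19) and Tbl1xr1 (0.19). Pik3ap1 had no gene as near, with Tlr8 (0.32), Glipr1 (0.33) and Cd180 (0.34) first. Within the set Fcer1g and Fcgr3 were the closest pair (0.23) and Lat2 and Fcgr2b the farthest (1.62), and the nearest of the others to Fcgr2b was Plcg2 (0.42). Spi1 itself had 4.03 ± 1.99 FPKM in NC mice, 91.8 ± 27.9 in HFD mice and 39.6 ± 26.7 in SZ-A mice, with log2 fold changes of 4.28 ± 0.31 with HFD (adjusted p = 2.7e-07) and -1.36 ± 0.33 with SZ-A (adjusted p = 0.0097).

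The rest of the pathway was counted from lists of 146 genes, of which 116 were tested. In HFD against NC 68 rose and 5 fell at an adjusted p under 0.05, with a median log2 fold change of 0.96. Over all genes 21.0% rose and 20.1% fell, with a median of -0.04. In SZ-A against HFD 57 fell and 4 were higher, with a median of -0.53. Over all genes 13.3% fell and 9.47% were higher, with a median of 0.03. In SZ-A against NC 35 were higher and 1 lower, where 4.15% of all genes were higher and 0.455% lower. Past the limit of 1.5 were 39 higher and 0 lower in HFD against NC, and 9 lower and 0 higher in SZ-A against HFD. Over all genes the shares past it were 5.43% higher and 2.54% lower in HFD against NC. In SZ-A against HFD they were 0.558% lower and 0.306% higher.

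Among the ligands, 5 of 13 immunoglobulin genes were in the table, and the IgG heavy chain genes were not analysed here. Igha, the IgA heavy chain, was the only one that rose with HFD (log2 fold change 1.66 ± 0.62, adjusted p = 0.046). Ighm, the IgM heavy chain, named after its values were seen, had a larger difference that missed the test (2.32 ± 0.90, adjusted p = 0.053) and fell with SZ-A (-1.40 ± 0.41, adjusted p = 0.023). In SZ-A against HFD 3 of the 5 fell, where 13.3% of all genes did. Igkc, the kappa light chain, had 649 ± 493 FPKM in HFD and 198 ± 144 in SZ-A mice (-1.81 ± 0.62, adjusted p = 0.047), and Jchain, the joining chain of IgM and IgA, 28.4 ± 25.5 and 7.80 ± 5.41 FPKM (-1.63 ± 0.54, adjusted p = 0.040). Groups overlapped in each of these genes, and the spread between mice was large. Of the other Fc receptors, 5 of 14 were tested, 3 rose with HFD and 1 fell with SZ-A, beside 21.0% and 13.3% of all genes. Fcrls, an Fc receptor-like gene of macrophages and microglia, rose most with the diet (1.17 ± 0.28, adjusted p = 0.0044), and Fcrl1, a B cell gene at or under 1.28 FPKM in every mouse, fell with SZ-A (-0.37 ± 0.11, adjusted p = 0.022).

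Of the 16 other ITAM chains and ITAM-coupled receptors tested, 8 rose with HFD and 6 fell with SZ-A, beside 21.0% and 13.3% of all genes. Trem2, the lipid receptor of adipose macrophages, had the largest diet change (5.61 ± 0.22, adjusted p = 5.5e-09) and fell with SZ-A (-1.59 ± 0.41, adjusted p = 0.014). Clec7a, the beta-glucan receptor Dectin-1, went from 2.58 ± 1.47 FPKM in NC to 53.6 ± 26.5 in HFD and 14.7 ± 6.08 in SZ-A mice. Its SZ-A values were all below the HFD values (-1.76 ± 0.29, adjusted p = 0.0012). Cd300lb (-1.59 ± 0.32, adjusted p = 0.0036) and Cd300ld (-1.66 ± 0.33, adjusted p = 0.0031) passed the limit too. Of the Src family kinases, 4 of 7 rose and 1 fell with HFD, and 3 fell with SZ-A.

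Downstream of the receptors, genes were counted by branch, and differences between branches were not tested. Over all genes 21.0% rose and 20.1% fell with HFD, and 13.3% fell and 9.47% were higher with SZ-A. In the Vav, Rac and actin branch 15 of 17 rose and 1 fell with HFD, and 15 fell with SZ-A, led by the myosin Myo1f (4.99 ± 0.27, adjusted p = 3.3e-08, and -1.55 ± 0.28, adjusted p = 0.0021). Of 17 other adaptors 10 rose and 1 fell with HFD, and 10 fell with SZ-A, led by Fyb, the Fyn-binding adaptor (3.16 ± 0.21, adjusted p = 1.3e-07, and -1.66 ± 0.22, adjusted p = 3.6e-04). Of 9 PI3-kinase subunits 4 rose and 1 fell with HFD, and 3 fell and 1 was higher with SZ-A. Pik3r5, the adaptor of PI3-kinase gamma, rose most with HFD (3.40 ± 0.25, adjusted p = 3.1e-07), and Pik3cd, the leukocyte catalytic subunit, fell most with SZ-A (-1.14 ± 0.18, adjusted p = 9.8e-04). Of 16 genes of the phospholipase C, PKC and CARD9 branch 8 rose and 1 fell with HFD, and 6 fell and 3 were higher with SZ-A, where the list median was -0.13. Prkcb, a protein kinase C of leukocytes, had the largest SZ-A change (-1.29 ± 0.26, adjusted p = 0.0032). Of the 4 tested kinases related to Syk and Btk, Tec rose with HFD (1.97 ± 0.20, adjusted p = 6.1e-06) and 0 passed the test with SZ-A, where Tec had -0.61 ± 0.21 (adjusted p = 0.053).

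The negative regulators moved in the same direction as the activating genes. Of 20 tested, 14 rose with HFD and 10 fell with SZ-A, beside 21.0% and 13.3% of all genes. Dok2, a docking protein that restrains Ras, had the largest diet change (3.23 ± 0.32, adjusted p = 3.6e-06), and Ptprc, the phosphatase CD45 that also activates Src kinases, the largest SZ-A change (-1.28 ± 0.23, adjusted p = 0.0020). In the phospholipase family the isoforms went opposite ways. Plcg1, the widely expressed isoform, was named after its values were seen. It had 18.3 ± 6.94 FPKM in NC mice, 10.1 ± 1.98 in HFD mice and 16.2 ± 3.84 in SZ-A mice. It fell with HFD (-0.74 ± 0.22, adjusted p = 0.015) and was higher with SZ-A (0.62 ± 0.16, adjusted p = 0.015), while Plcg2 had 1.42 and -0.98 in the same fits.

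**Figure D5:**
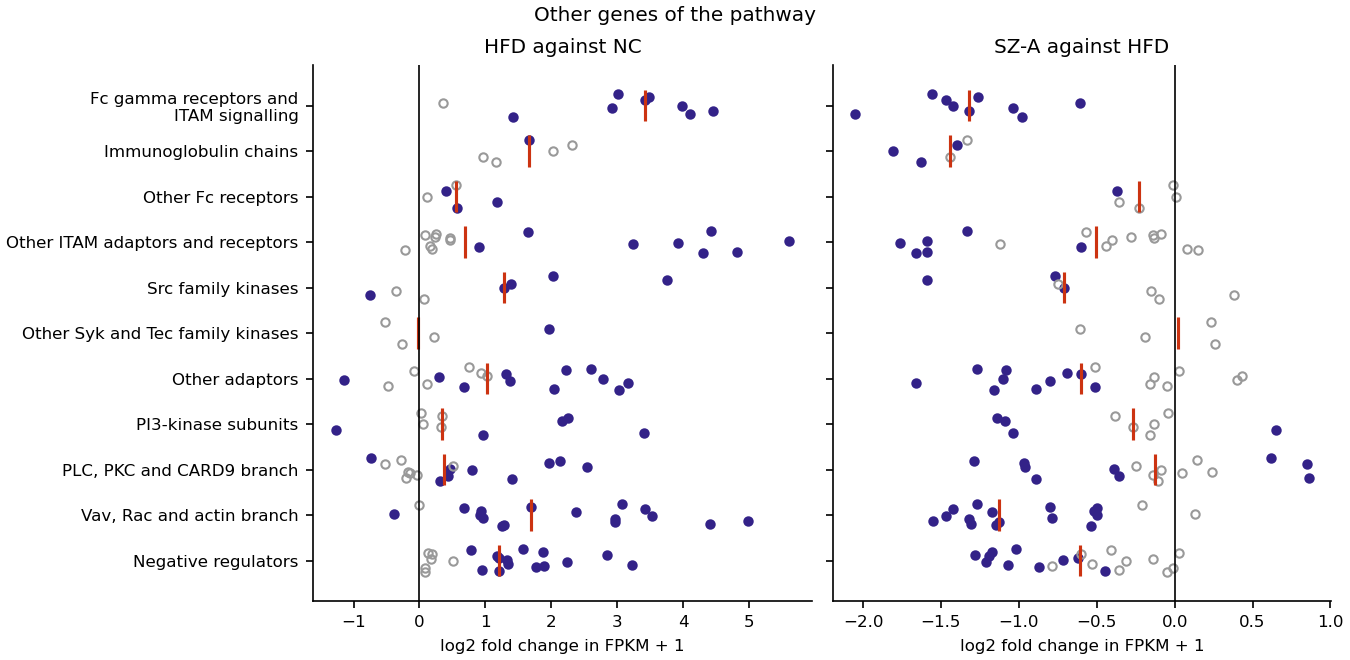
Log2 fold change in log2(FPKM + 1) of the 9 genes (top row) and of each tested gene of the other pathway lists, for HFD against NC (left) and SZ-A against HFD (right); filled points have an adjusted p under 0.05, open points do not, and red bars are list medians. The 9 genes have medians of 3.42 and -1.32, beside 0.96 and -0.53 over all 116 genes of the lists.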

How the data were processed

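RNA of eWAT from 20 mice was sequenced. Libraries were made with the NEBNext Ultra RNA kit, per the labels. Per the study's methods, mRNA was taken with poly-T beads, and 150 bp read pairs were aligned to GRCm38 with HISAT2. The submitters' processing notes name featureCounts 1.5.0-p3. The annotation release, the strand setting and the filter on genes are not given in the sources used here. The authors deposited FPKM for 14776 genes, 1 column per mouse, all above 0. The labels give 6 NC mice, fewer than the number per group that the study states for RNA sequencing. Per the columns, 0 belonged to samples outside the labels.

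Gene models were taken from GENCODE M21, which holds 14770 of the genes. FPKM times exon length gave whole reads within 0.01 for 95.9% to 96.3% of values under 1000 reads, which supplied the read numbers and an alternative with voom. Each comparison was fitted on log2(FPKM + 1) by limma 3.58.1 (R 4.3.3) to the mice of its 2 groups alone. Genes had to average 0.1 FPKM or more. The fit used a variance trend, and p-values were adjusted across every tested gene by the Benjamini-Hochberg method. Fold changes are on that scale and understate the change of low genes. Calls needed an adjusted p under 0.05, and the stricter rule also a log2 fold change above 1.5, the limit in the study's methods. A linear limit of 1.5, which the study's results name, was tried as well. The same steps were tested on simulated data. Ratios were tested by exact permutation over mice. Alternatives changed the pseudocount, filter, scaling, threshold, fit, reference markers or mice used.

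Members, gene lists and tests were chosen with earlier results of these data known. Named are the 9 genes, the gene with the largest change among those with an adjusted p under 0.05 of each pathway list in HFD against NC and in SZ-A against HFD, each pathway gene past the limit in SZ-A against HFD, the 3 closest profiles, and defining markers. Some genes that this rule names are not reported here. Plcg1 and Ighm were added after their values were seen. Replicate numbers were shared between groups but marked no common animal, and the labels do not say whether they mark a batch. Correlations over genes between mice of the same number ran from -0.41 to 0.59. No block was used in the main fits, and results with a block are given among the alternatives. Python 3.11.15, pandas 2.3.3, NumPy 2.4.6, SciPy 1.17.1 and matplotlib 3.10.9 made tables and plots.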

Additional observations from a re-analysis of the deposited data

Results flagged for a closer look

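Of 36 groups examined, each of the 9 genes and the 3 receptor ratios in each group of mice, 2 held a mouse far from the others by Dixon's test, and chance alone flags about 1 in 20 groups. Both were NC replicate 6. Fcgr1 had 0.345 FPKM in that mouse, with the other NC mice between 0.982 and 1.44. Fcer1g had 3.22 FPKM there, with the others between 13.5 and 28.4. The same library was lowest of its group in Adipoq and Pecam1 and highest in Fcgr2b, Syk and Plcg2.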

How the results depend on the processing

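In HFD against NC the number of genes past both criteria, 7, was 7 or 8 under every alternative run. In SZ-A against HFD the number was 2, and it was 9 at an adjusted p under 0.05 alone, 9 with a fold change above 1.5, 5 with array quality weights, and 1 to 6 when each mouse was left out in turn. In SZ-A against NC it was 6, and with the replicate number as a block 2. Leaving out mice with over 200 FPKM of epididymis and epithelial markers, an alternative chosen after seeing the data, gave 1. The block also ended the call of the Fcgr4 to Fcgr2b ratio in SZ-A against HFD (-0.95, adjusted p = 0.070 by exact permutation) and changed no other count or ratio call. When each mouse was left out in turn, that ratio difference ran from -1.25 to -0.78, and that of Fcgr3 from -0.83 to -0.42. Same-numbered mice had correlations above 0.1 in 1 of 6, 3 of 7 and 2 of 6 pairs in the 3 comparisons, so the numbers were not taken as a pairing.

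Relative to macrophage markers, 5 genes passed the test in HFD against NC and 2 in SZ-A against HFD. With Adgre1 alone as reference these became 8 and 4, and leaving out each mouse gave 1 to 3 in SZ-A against HFD. With Adgre1 the differences in HFD against NC turned to -1.18 for Fcer1g, -1.67 for Fcgr3, -1.74 for Fcgr4, -0.70 for Lat2 and -1.06 for Pik3ap1, and those in SZ-A against HFD to 0.44 for Fcer1g, 0.30 for Fcgr1, 0.39 for Fcgr4 and 0.54 for Lat2. With a pseudocount of 0.1 Fcgr1 had 0.39 and Fcgr4 0.72 in HFD against NC. The number of genes passing the test was then 6 in HFD against NC and 3 in SZ-A against HFD. Without Trem2, Cd9 and Msr1 in the list Fcgr3 had -0.02 in SZ-A against HFD. Leaving out each mouse moved Syk in HFD against NC between -0.48 and 0.25, and in SZ-A against HFD Fcgr3 between -0.08 and 0.09 and Lat2 between -0.14 and 0.06. The cause of these shifts was not tested. Values of Fcgr1, Fcgr4 and Lat2 in NC mice rest on few reads, which limits their fold changes.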

Other observations

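A few other genes of the pathway are given here. Pik3r3, a regulatory PI3-kinase subunit, had 6.76 ± 2.03 FPKM in NC mice (SD, n = 6), 2.18 ± 0.569 in HFD mice and 3.96 ± 0.682 in SZ-A mice (n = 7 each), with log2 fold changes of -1.27 ± 0.17 (adjusted p = 5.8e-05) and 0.65 ± 0.12 (adjusted p = 0.0027), and its groups did not overlap in either comparison. Yes1, a Src family kinase of many cell types, fell with HFD from 4.76 ± 0.852 to 2.44 ± 0.533 FPKM (-0.75 ± 0.13, adjusted p = 5.3e-04). With SZ-A its value was 3.51 ± 0.911 FPKM (0.38 ± 0.14, adjusted p = 0.068). Tyrobp, the ITAM chain that serves Trem2, had 26.5 ± 14.3 FPKM in NC mice, 523 ± 161 in HFD mice and 243 ± 181 in SZ-A mice, with log2 fold changes of 4.43 ± 0.39 (adjusted p = 1.4e-06) and -1.33 ± 0.36 (adjusted p = 0.018). Inpp5d, the phosphatase that Fcgr2b recruits, had 10.3 ± 18.4 FPKM in NC mice, 15.8 ± 3.04 in HFD mice and 7.55 ± 2.82 in SZ-A mice, with a rise in HFD against NC (1.57 ± 0.55, adjusted p = 0.035), and its SZ-A mice were all below the HFD mice (-1.02 ± 0.19, adjusted p = 0.0024). Its highest value in any mouse, 47.9 FPKM, was that of NC replicate 6. These genes were chosen after their values were seen, and the adjusted p-values are from limma.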
